A study of Mus musculus with 2 samples.

Results

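The CD8 T cells of mouse tumours were taken from a single-cell RNA sequencing study of Havcr2, the gene for the receptor TIM-3. A tumour cell was counted as a CD8 T cell when it had a UMI (a counted mRNA molecule) of Cd3e and of Cd8a or Cd8b1, none of Cd4, Cd79a or Foxp3, and a C1qa value below 2 on the deposited natural log scale. The cells were thus selected on measured levels of these genes, which are not findings. The rule took 177 of 4521 tumour cells, in a series of 12458 cells. Of the 255 tumour cells with Cd3e and Cd8a or Cd8b1, 43 were left out for Cd4, Cd79a or Foxp3 and 35 for C1qa alone. The highest C1qa value inside the rule was 1.87 and the lowest value among cells left out on C1qa alone was 2.91. By mouse, 83 cells came from KO1, 19 from KO2, 67 from WT1 and 8 from WT2.

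Mice of the strain C57Bl6 carried tumours of MC38-OVAdim, from a colon carcinoma line of the mouse, under the skin of the flank. The labels name KO mice and WT mice, and the WT mice, the controls, were Havcr2fl/fl, with 2 mice in each genotype. The sources used here give neither the Cre driver nor the exons removed, nor the age and sex of the mice. Every mouse also gave cells of 2 lymph node sites, named dLN and ndLN. Cells were sorted on CD45 with dendritic cells enriched, tagged by mouse and tissue, and run in 2 droplet channels, channel 1 with KO1 and WT1 and channel 2 with KO2 and WT2. The tissue of a cell was read from its tag and not from its genes.

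CD8 T cells recognise peptides on other cells through the T cell receptor and kill with perforin and granzymes. In tumours, where antigen persists, they commonly carry inhibitory receptors such as PD-1 (Pdcd1), LAG-3 (Lag3), TIGIT and TIM-3, each of which restrains signalling after binding its ligands. Naive and memory CD8 T cells of lymph nodes instead express Tcf7 and Lef1, transcription factors of the naive and stem-like state, and the homing receptor Ccr7. TIM-3 is also made by macrophages and dendritic cells.

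Median depth in the tumour CD8 T cells was 7128 UMIs per cell in KO1, 8648 in KO2, 8468 in WT1 and 6775.5 in WT2. CD8 T cells taken by the same rule numbered 196 and 213 in KO dLN and 284 and 306 in WT dLN, at median depths of 5005.5 to 5716 UMIs. Levels are given as mean UMIs per 10000 UMIs of a cell, and differences as the difference of mean log2(1 + UMIs per 10000), on which changes of low genes come out too small. Shares and counts of genes whose groups do not overlap were taken on that mean log scale, which can order mice otherwise than the levels. The mouse was the replicate. Between the 2 channels 65 cell barcodes were shared, and no shared barcode was a tumour CD8 T cell in both.

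Both Cd8a and Cd8b1 had a UMI in 170 of the 177 cells, which the rule largely fixed. The label was checked against genes that the rule did not use. Cd3d, a chain of the CD3 complex, had 18.6 and 17.2 UMIs per 10000 in KO cells and 15.1 and 15.6 in WT cells. The NK cell receptor gene Ncr1 was at 0 in all 4 tumours, but other genes of NK cells were not all absent. Klrb1c was detected in 0% and 5.26% of KO cells and in 1.49% and 0% of WT cells. Fcer1g, also counted here as a monocyte marker, was detected in 14.5% and 15.8% of KO cells and in 19.4% and 12.5% of WT cells. Pdcd1 was detected in 79.7% of the cells, Lag3 and Tigit in 78.5% each, and Gzmb in 66.1%. By mouse, Pdcd1 was detected in 86.7% and 78.9% of KO cells and in 77.6% and 25.0% of WT cells. In the 8 cells of WT2, Lag3 was at 25.0% and Tigit and Gzmb at 37.5% each, so that the pooled shares are those of the other mice. Markers of gamma-delta T cells and T cell receptor constant genes were not analysed here. Macrophage markers were present at a low level. Summed over the 14 genes of that list, their mean was 7.48 UMIs per 10000 in KO1 and 3.86 in KO2, against 12.3 in WT1 and 9.27 in WT2, and 13 and 6 of the 14 had a UMI in KO tumours, against 14 and 9 in WT tumours. The medians of the sum lay closer, at 4.3 and 3.3 in KO cells and 5.0 and 3.6 in WT cells. The 12 dendritic cell markers summed to 4.81 and 1.01 in KO cells and to 31.0 and 0.453 in WT cells. In all, 15 cells had more than 20 UMIs per 10000 of the macrophage and dendritic cell lists together. Cells holding RNA of 2 cell types were not removed beyond the rule.

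Set against the other tumour cells, the CD8 T cells stood out by the genes below, which are a description, since the rule chose the cells by their expression. After Cd8b1 and Cd8a the highest ratios among genes at 1 or more UMIs per 10000 in each tumour were those of Gzmk, a granzyme of effector and memory cells, Rgs16, a regulator of G protein signalling, Pdcd1, the chemokine receptor gene Cxcr6 and the NK receptor gene Klrc1, at 113, 92.4, 70.1, 64.2 and 50.8 times the mean of the other tumour cells. Nkg7, a protein of cytotoxic granules, followed at 36.3 times, Lag3 at 30.5 times and Klrd1, the partner of Klrc1, at 26.9 times. These ratios were lowest in 1 of the 4 tumours at 51.2 for Gzmk and 38.4 for Pdcd1.

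Within the CD8 T cells, the inhibitory receptors went together in the same cells. Of 141 cells with a Pdcd1 UMI, 92.9% had Lag3, 92.2% had Tigit and 52.5% had Havcr2. Of the 36 cells without Pdcd1, 22.2% had Lag3, 25.0% had Tigit and 11.1% had Havcr2. These 36 cells differed between mice, with 11 from KO1, 4 from KO2, 15 from WT1 and 6 from WT2. Among them Lag3 was at 45.5% and 50.0% in KO mice and at 6.67% and 0% in WT mice. Tigit was at 54.5% and 50.0% in KO mice and at 0% and 16.7% in WT mice. Tcf7 ran the other way, at 4.26% of cells with Pdcd1 and 30.6% of cells without. By mouse, Tcf7 in cells without Pdcd1 was at 9.09% and 25.0% in KO and at 40.0% and 50.0% in WT. Cells with Pdcd1 were deeper, at a median of 8147 UMIs against 6316.5, so every cell was also thinned to 2000 UMIs, which left out 2 cells. At that depth Lag3 was found in 81.3% of cells with Pdcd1 and 41.3% of cells without, Havcr2 in 30.4% and 9.52%, and Tcf7 in 1.79% and 11.1%. Gzmb was found in 70.9% of cells with Pdcd1 and 47.2% of cells without at full depth, and in 60.7% and 52.4% after thinning. Thinning left 63 cells without a Pdcd1 UMI, against 36 at full depth. Some cells on that side thus had Pdcd1 before thinning. These are shares over cells of 4 mice, with no test.

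**Figure D1:**
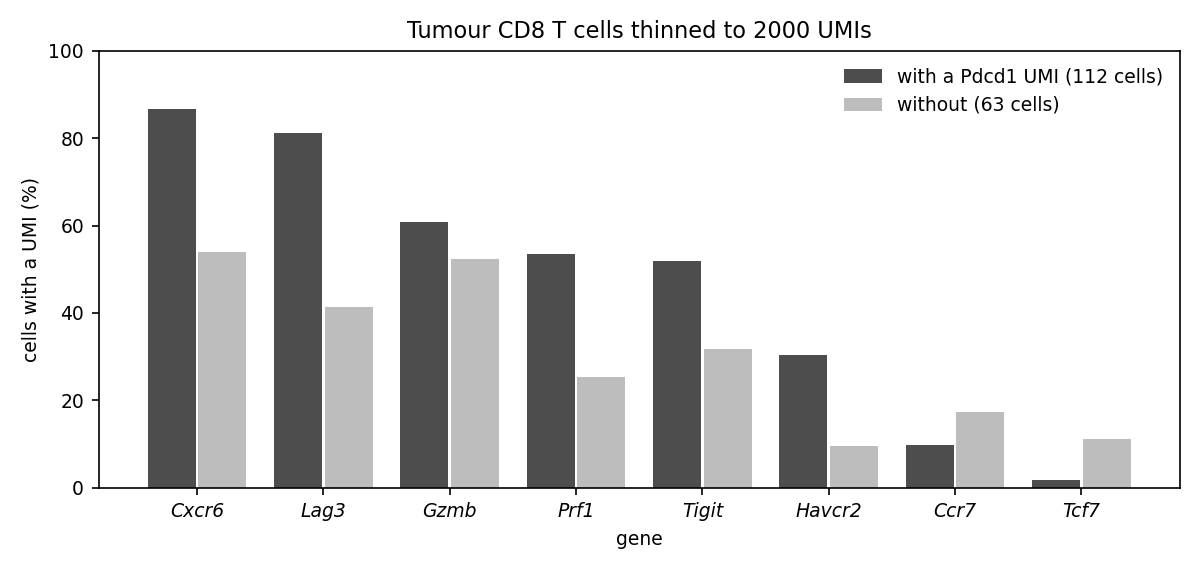
Share of tumour CD8 T cells with a UMI of each gene (y axis, %), for the 112 cells with a Pdcd1 UMI (dark bars) and the 63 cells without (light bars), after each of the 175 cells was thinned to 2000 UMIs. Lag3, Tigit, Havcr2, Cxcr6 and Prf1 are more frequent on the Pdcd1 side, and Tcf7 and Ccr7 on the other.

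Several effector transcripts, but not Gzma, were more frequent in cells with Havcr2. Of 78 cells with a Havcr2 UMI, 94.9% had Pdcd1, 82.1% had Gzmb, 85.9% had Prf1 and 59.0% had Ccl3, a chemokine of activated T cells and macrophages, against 67.7%, 53.5%, 53.5% and 19.2% of the 99 cells without. Gzmc and Gzmf, granzymes of the same gene cluster as Gzmb, were found in 29.5% and 24.4% of cells with Havcr2 and in 9.09% and 5.05% of cells without; they are closely related copies, so that counts among them are uncertain. Gzma was found in 24.4% and 23.2%. Depth differed here too, at medians of 9283.5 and 6398 UMIs. After thinning, Prf1 was found in 65.0% of 40 cells with Havcr2 and 37.0% of 135 cells without, and Gzmb in 72.5% and 53.3%. Ccl3, Gzmc, Gzmf and Gzma were not counted after thinning. The 78 cells were 36 of KO1, 5 of KO2, 35 of WT1 and 2 of WT2. Ccl3 with and without Havcr2 was at 52.8% and 27.7% in KO1 and at 40.0% and 21.4% in KO2. In WT1 it was at 71.4% and 9.38%, and in WT2 at 0% on both sides.

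Cells with UMIs of at least 3 of 12 proliferation genes made up 4 of 83 cells in KO1 and 1 of 19 in KO2, against 11 of 67 in WT1 and 0 of 8 in WT2. As shares, these are 4.82% (exact binomial 95% interval 1.33 to 11.9%) and 5.26% (0.133 to 26.0%) in KO tumours and 16.4% (8.49 to 27.5%) in WT1, and the count of 0 in WT2 had an interval up to 36.9%. The intervals here and below cover counting error only. The groups overlap.

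The share of CD8 T cells among tumour cells was compared between genotypes. They made up 6.13% (4.91 to 7.54%) of the cells of KO1 and 4.02% (2.44 to 6.20%) of KO2, against 3.96% (3.08 to 5.00%) of WT1 and 0.798% (0.345 to 1.57%) of WT2. KO2 and WT1 are nearly equal, and the low value of WT2 sets most of the difference. The genotype means were 5.07 ± 1.49% in KO and 2.38 ± 2.24% in WT (SD, n = 2 each), and the two-sided exact permutation test gave p = 0.333, the smallest that 2 against 2 mice allow. Without WT2 the difference in percentage points was 1.11, against 2.69 with it. As a share of tumour cells with a Cd3e UMI they were 51.9% and 33.9% in KO and 33.5% and 20.0% in WT. Cells with Cd3e were 11.8% of the tumour in KO1, KO2 and WT1 alike and 3.99% in WT2. The enrichment of dendritic cells in the sort bears on every share of cells.

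**Figure D2:**
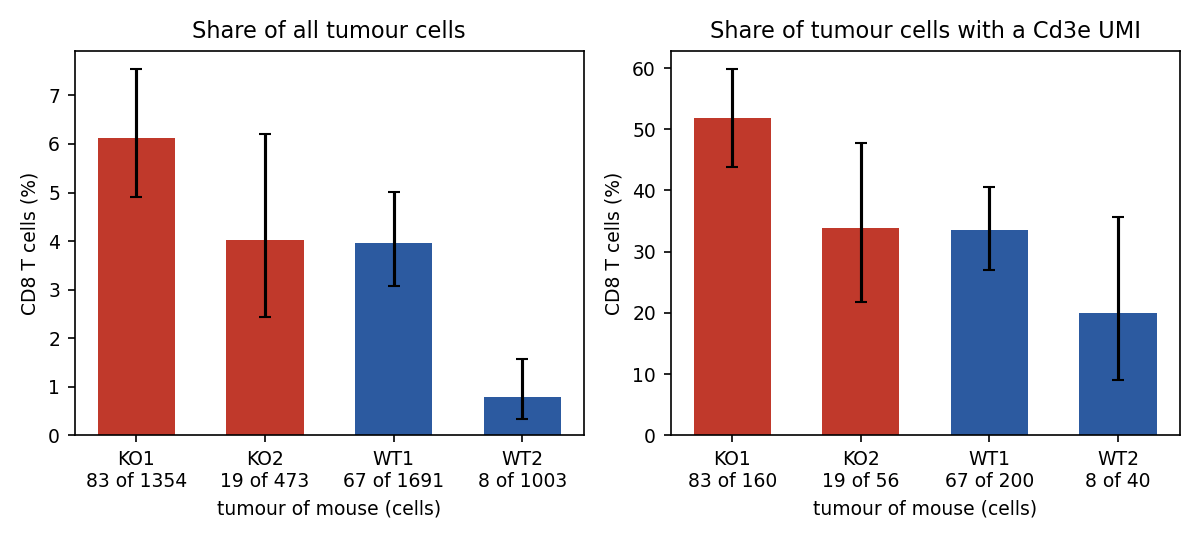
CD8 T cells as a share (y axis, %) of all tumour cells (left) and of tumour cells with a Cd3e UMI (right), by mouse, KO in red and WT in blue; bars start at 0 and lines are exact binomial 95% intervals. The cell counts stand under each bar, and the bar of WT2 rests on 8 cells.

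To see what sets CD8 T cells of the tumour apart from those of the lymph node, tumour was compared with dLN within the same 4 mice. The node cells were all those of the rule and were mixed. Of 1863 such cells in dLN and ndLN, 759 had a UMI of Ccl5, a chemokine gene of effector and memory T cells. The fit did not set tumour cells against these alone, so differences between activated and resting cells are included. Inhibitory and costimulatory receptors, granule proteins, chemokines and glycolytic enzymes were higher in the tumour, and genes of the naive state and of the ribosome were lower. Of 7591 genes tested, 1136 were higher in tumour and 268 lower (limma with Benjamini-Hochberg adjustment), which is 15.0% and 3.53% of the genes. At an unadjusted p under 0.05 there were 32.4% of genes. In 22.4% of genes all 4 tumours lay above all 4 dLN samples, and in 5.37% below them. The median difference over all genes was 0.06. With log2(0.1 + mean) in place of the mean of logs, the counts were 697 higher and 292 lower.

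Among inhibitory receptors, 11 of 15 tested were higher in tumour and 1 was lower, with a median difference of 0.36. Pdcd1 had 10.9 and 5.45 UMIs per 10000 in KO tumours and 7.41 and 2.35 in WT tumours, against 0.0970 and 0.0929 in KO dLN and 0.0503 and 0.0243 in WT dLN. Every tumour lay above every node, and the difference was 2.05 (SE 0.252, adjusted p = 2.01e-04). Lag3 had 15.4 and 8.76 in KO tumours and 9.07 and 1.00 in WT tumours, against at most 0.153 in any dLN, a difference of 2.16 (SE 0.326, adjusted p = 8.48e-04). Tigit and Ctla4, which compete with costimulatory receptors for their ligands, were higher by 1.51 and 0.86. Havcr2 was higher by 0.62 (SE 0.0969, adjusted p = 0.00105). Its UMIs were found in 7 of 999 dLN cells and 4 of 864 ndLN cells. In KO1 dLN they were found in 0 of 196 cells, which allows up to 1.53% by 3 over the number of cells, an approximate limit. Btla, an inhibitory receptor of resting lymphocytes, was the lower one, at -0.14 (adjusted p = 0.0172), a call lost without KO1, without KO2 and without WT1.

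The costimulatory receptors moved the same way, with 8 of 11 higher, 0 lower and a median of 0.63. Tnfrsf9 (4-1BB), which is induced by T cell receptor signals, had 11.6 and 7.59 UMIs per 10000 in KO tumours and 10.7 and 2.45 in WT tumours, against 0.0411 to 0.261 in dLN. The difference was 2.08 (SE 0.216, adjusted p = 6.66e-05), and the tissues did not overlap. Tnfrsf18 (GITR) was higher by 1.25, Icos by 0.85 and Tnfrsf4 (OX40) by 0.75. In the T cell receptor complex and its proximal signalling, 9 of 14 genes were higher and 0 lower, among them Thy1 by 1.17 and Cd3g by 0.84.

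Cytotoxic genes had the highest list median, 0.97, with 13 of 15 higher and 0 lower. Gzmb, granzyme B, had 23.7 and 10.2 UMIs per 10000 in KO tumours and 18.7 and 5.82 in WT tumours, against 0.164 and 0.116 in KO dLN and 0.0423 and 0.0943 in WT dLN. This was a difference of 2.19 (SE 0.220, adjusted p = 5.25e-05). Nkg7 was higher by 2.34, Srgn, the granule proteoglycan, by 1.95 and Fasl, the death ligand, by 1.26. Prf1, perforin, had 7.09 and 5.56 in KO tumours and 6.48 and 0.382 in WT tumours, against 0.274 to 0.421 in dLN. Its difference of 1.21 passed (SE 0.217, adjusted p = 0.00259), although WT2 lay within the range of the nodes. Of the killer lectin-like receptors 6 of 8 were higher, with Klrc1 at 2.42 and Klrk1 (NKG2D) at 1.91.

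Of 12 cytokine and chemokine genes 8 were higher and 1 was lower. Ccl5, a chemokine of effector and memory T cells, had 49.0 and 79.3 UMIs per 10000 in KO tumours and 59.9 and 32.3 in WT tumours, against 10.2 and 8.53 in KO dLN and 5.52 and 5.99 in WT dLN, a difference of 2.69 (SE 0.327, adjusted p = 1.85e-04). Ccl4 was higher by 2.19. Ifng, interferon gamma, had 6.01 and 34.6 in KO tumours and 4.67 and 0.479 in WT tumours, against 0.0958 to 0.207 in dLN, and was higher by 1.39 (SE 0.202, adjusted p = 6.99e-04). A single KO2 cell with 501 Ifng UMIs and another with 162 carried most of the KO2 level, which was 5.42 without them. Among cytokine receptors 10 of 17 were higher and 1 lower, with Il2rb at 1.85 and Ifngr1 at 1.69, and Il6ra the lower one at -0.46.

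In the list of exhaustion and effector transcription factors 14 of 22 genes were higher and 0 lower. Id2, which favours effector over memory fate, had 11.4 and 11.0 UMIs per 10000 in KO tumours and 6.72 and 5.86 in WT tumours, against 0.723 to 0.995 in dLN, a difference of 2.24 (SE 0.187, adjusted p = 1.72e-05). Bhlhe40 was higher by 1.78, Irf8 by 1.59 and Hif1a, the hypoxia-inducible factor, by 1.15. Tox, a driver of the exhausted state, did not follow. It had 0.0156 and 0.585 in KO tumours and 0.246 and 0 in WT tumours, against 0.337 to 0.432 in dLN, and the difference of -0.10 did not pass (SE 0.0759, adjusted p = 0.397). Tox was detected in 21 of the 177 cells.

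The naive and stem-like list ran down, with 14 of 17 genes lower, 1 higher and a median of -0.60. Tcf7 had 0.0886 and 0.185 UMIs per 10000 in KO tumours and 0.399 and 0.892 in WT tumours, against 2.76 and 3.03 in KO dLN and 3.35 and 2.78 in WT dLN. The tissues did not overlap and the difference was -1.31 (SE 0.116, adjusted p = 2.28e-05). Klf2, a factor of quiescent and recirculating T cells, differed by -1.80, Lef1 by -1.35 and Ccr7 by -1.26. The member that was higher was Ly6c2, at 0.73 (adjusted p = 0.00779), a gene of memory and effector CD8 T cells and of monocytes.

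**Figure D3:**
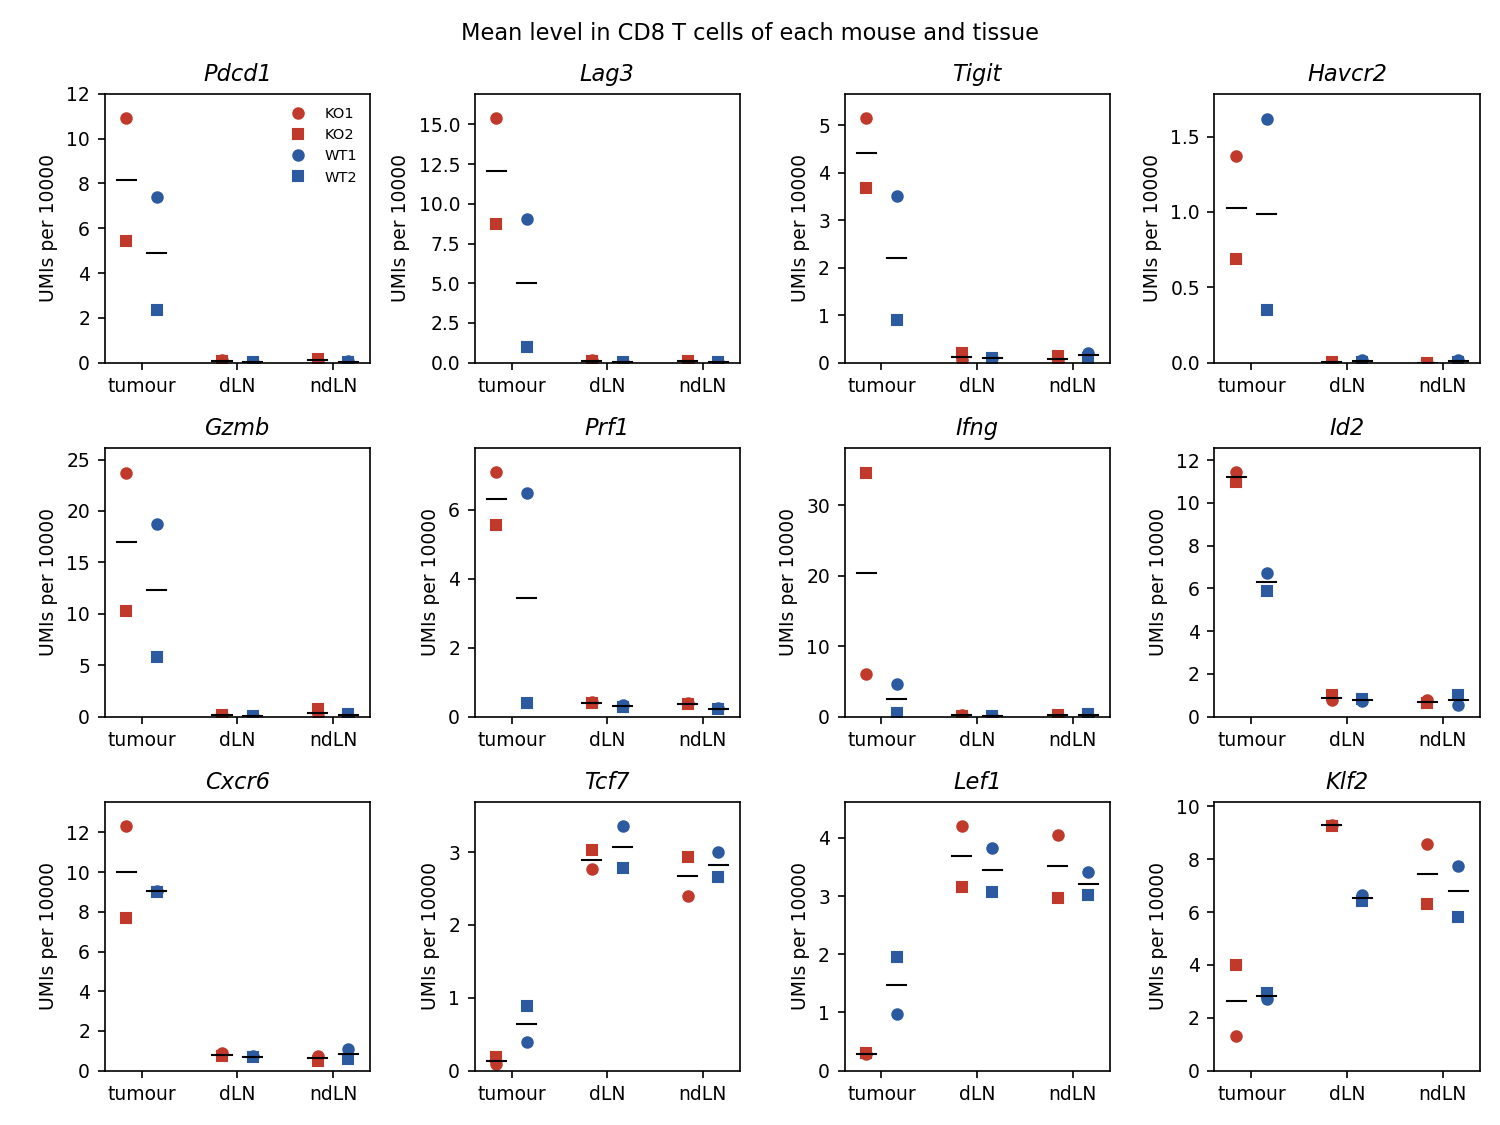
Mean level (y axis, UMIs per 10000) of 12 genes in the CD8 T cells of each mouse in tumour, dLN and ndLN; KO in red at the left and WT in blue, mouse 1 as a circle, mouse 2 as a square, and a line at the genotype mean. The 9 genes from Pdcd1 to Cxcr6 are at most 1.08 in any node sample, while Tcf7, Lef1 and Klf2 are higher in the nodes, and WT2 is the lowest tumour for Pdcd1, Lag3, Tigit, Havcr2, Gzmb, Prf1, Ifng and Id2.

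Glycolysis and hypoxia genes were higher in 17 of 19 cases and lower in 1, with a median of 0.60. Aldoa, aldolase, had 22.0 and 11.3 UMIs per 10000 in KO tumours and 17.0 and 9.24 in WT tumours, against 3.66 to 3.97 in dLN, and was higher by 1.49 (SE 0.244, adjusted p = 0.00143). Tpi1 was higher by 1.42 and Gapdh by 1.37. Pdk1, a pyruvate dehydrogenase kinase, was lower, at -0.34. In migration and residency genes 12 of 20 were higher and 1 lower, with Cxcr6 at 2.23, Rgs16 at 1.91 and Rgs1 at 1.79, and the gut-homing integrin gene Itgb7 lower, at -0.62.

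Other lists had fewer calls. Over all genes tested, 15.0% were higher and 3.53% lower. Proliferation genes were near those shares. Interferon-stimulated genes were above the first, and stress and immediate early genes were above the second. Proliferation had 3 of 22 genes higher and 1 lower, and Mki67, a marker of cycling cells, had 0.299 and 0.391 UMIs per 10000 in KO tumours and 0.349 and 0 in WT tumours, against 0.0485 to 0.302 in dLN (difference 0.11, SE 0.0457, adjusted p = 0.118). Interferon-stimulated genes had 5 of 14 higher and 1 lower, with Isg20 at 0.63. Of 16 stress and immediate early genes 2 were higher, Jund at 1.16 and Junb at 0.71, and 4 lower, with the chaperone genes Dnajb1 at -1.21, Hsp90aa1 at -0.76 and Hspe1 at -0.75. The calls of Hsp90aa1, Hspe1 and the other lower gene, Hspa1a, were lost without KO1 and without KO2.

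Among the genes named by size outside the lists were S100a6, a calcium-binding protein of activated and memory T cells, at 3.31 (SE 0.206, adjusted p = 2.27e-06), Lgals1 (galectin 1) at 2.62, Ly6a (Sca-1) at 2.55 and Anxa2 (annexin A2) at 2.21. In the other direction stood ribosomal proteins. Rplp1 had 30.5 and 37.2 UMIs per 10000 in KO tumours and 39.1 and 52.9 in WT tumours, against 90.2 to 98.5 in dLN, a difference of -1.39 (SE 0.0781, adjusted p = 1.16e-06). Of 80 genes of cytoplasmic ribosomal proteins 70 were lower and 1 higher, with a median of -0.70; this family was chosen after its values were seen. The 3 tested markers of monocytes and neutrophils (Plac8, Ccr2 and Fcer1g), 1 of 6 macrophage markers (Ctsb) and 1 of 5 dendritic cell markers (Itgax) were also higher, and their part in the other differences was not tested.

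**Figure D4:**
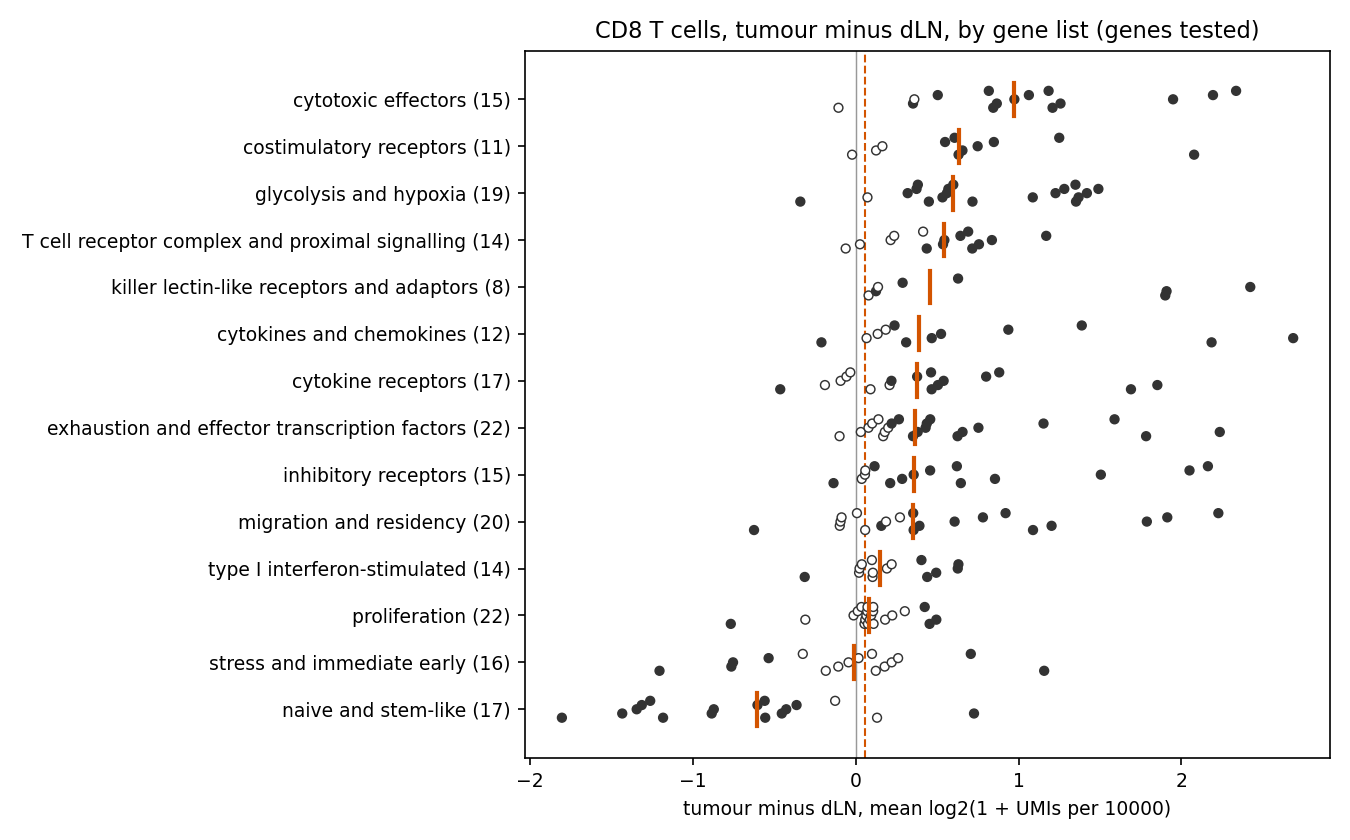
Tumour minus dLN difference of CD8 T cells (x axis, mean log2(1 + UMIs per 10000)) for each tested gene of 14 lists; filled points passed an adjusted p of 0.05 and open points did not, orange bars are list medians and the dashed line is the median of all genes, 0.06. Cytotoxic effectors lie highest, with a median of 0.97, and naive and stem-like genes lowest, with a median of -0.60.

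Havcr2 was the targeted gene and was compared between genotypes first. It lies on chromosome 11 at 46454935 to 46481255 of mm10, on the plus strand. Tumour CD8 T cells of KO mice still had it. Their mean was 1.37 UMIs per 10000 in KO1 and 0.689 in KO2, against 1.62 in WT1 and 0.352 in WT2, and it was detected in 36 of 83 and 5 of 19 KO cells, against 35 of 67 and 2 of 8 WT cells. The genotypes overlap, with each KO mouse between the WT mice. The exons removed are not given, and whether the counted reads fell in the deleted part was not tested. In tumour cells with C1qa of 2 or more and no Cd3e, described below, Havcr2 was detected in 5.88% and 6.03% of KO cells. In WT cells of that kind it was detected in 64.8% and 58.7%. In CD8 T cells the difference was -0.01 (SE 0.161, adjusted p = 0.967), and its sign changed with the setting. Without WT1, where the 8 cells of WT2 stood alone for their genotype, it was 0.30 (adjusted p = 0.0248).

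In tumour cells with C1qa of 2 or more and no Cd3e, a macrophage gene pattern, Havcr2 was detected in fewer cells of KO mice. It was at 0.0602 and 0.0352 UMIs per 10000 in KO tumours and at 0.657 and 0.573 in WT tumours, and was detected in 5.88% and 6.03% of KO cells against 64.8% and 58.7% of WT cells, at median depths of 20639 to 21574.5 UMIs. The genotypes do not overlap there, but the difference of -0.52 (SE 0.197) did not pass over all genes (adjusted p = 1.00). That fit gave each gene 1 spread over CD8 T cells and C1qa-high cells together. The SE therefore does not measure the spread of the C1qa-high cells alone. The genotype difference in CD8 T cells minus that in C1qa-high cells was 0.51 (SE 0.203), which did not pass over 9425 genes (adjusted p = 0.907), where 0.00% of genes passed and 275 (2.92%) had an unadjusted p under 0.05. By limma-voom on summed UMIs the same difference was 3.61 (SE 0.387, adjusted p = 1.04e-04), and 13 genes passed. Without WT1 it was 0.79 (adjusted p = 0.0424). This comparison was added after the data were seen. For the background of such shares, Havcr2 was found in 0 of 29 and 0 of 7 tumour NK cells of KO mice. This allows up to 10.3% and 42.9% by 3 over the number of cells, which is a rough limit at 7 cells. In tumour NK cells of WT mice, Havcr2 was found in 3 of 58 and 1 of 3. It was found in 0.701% of dLN CD8 T cells, at a median of 5404 UMIs, against 44.1% of tumour CD8 T cells at 7997.

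**Figure D5:**
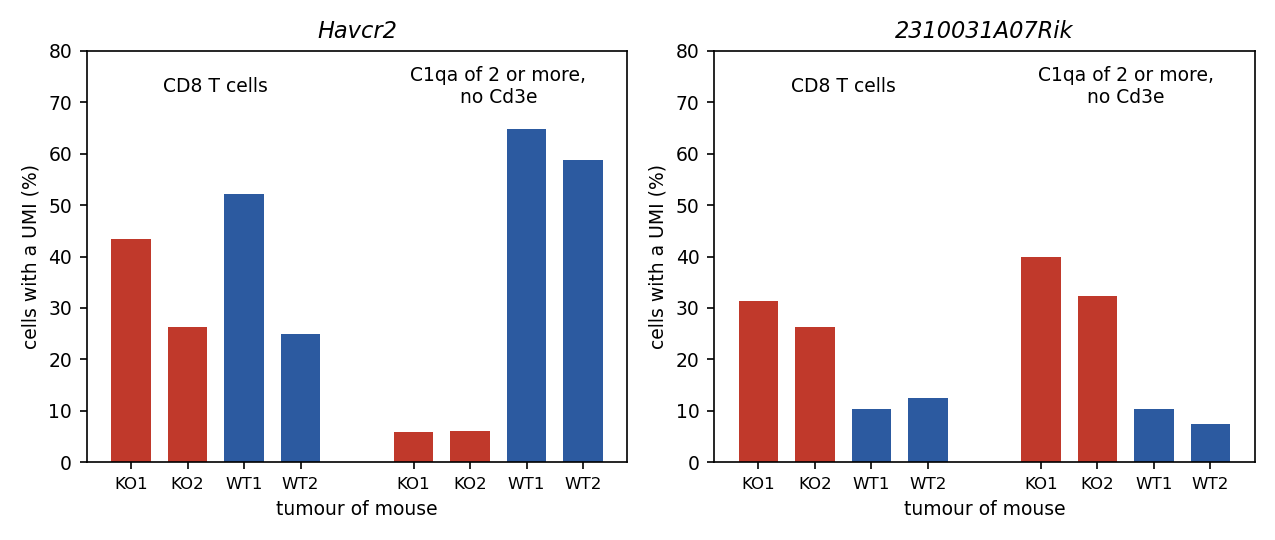
Share of cells with a UMI (y axis, %) of Havcr2 (left) and of 2310031A07Rik (right) in CD8 T cells and in C1qa-high cells of each tumour, KO in red and WT in blue. Havcr2 is at 26.3 to 43.4% in KO CD8 T cells and at about 6% (5.88 and 6.03%) in KO C1qa-high cells, while 2310031A07Rik is higher in KO in both.

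Across all genes, few differences between KO and WT tumour CD8 T cells passed. Of 7958 genes tested, 4 were higher in KO and 1 lower, which is 0.0503% and 0.0126%, and 5 in all (0.0628%). The split by direction was not stable, at 1 higher and 6 lower with log2(0.1 + mean), 19 and 29 with no filter on detection, and 15 and 25 without WT2. The gene with the smallest p was 2310031A07Rik, annotated as a lincRNA on the minus strand of chromosome 11 from 46440362 to 46447248, 7.69 kb from Havcr2. It had 0.664 and 0.501 UMIs per 10000 in KO tumours and 0.123 and 0.0805 in WT tumours, and was detected in 31.3% and 26.3% of KO cells against 10.4% and 12.5% of WT cells. The genotypes did not overlap, as in 17.1% of all genes with KO higher and 15.1% with KO lower, and the difference was 0.34 (SE 0.0337, adjusted p = 0.00565). With the channel as a term it was the gene that still passed (adjusted p = 0.0141). In C1qa-high cells it was detected in 40.0% and 32.3% of KO cells against 10.3% and 7.46% of WT cells. In dLN CD8 T cells it was near 0, at 0.0233 and 0.00695 in KO and 0.00796 and 0.0142 in WT. An effect of the targeted locus and an effect of TIM-3 cannot be told apart here.

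The other genes that rose were Id2, Mdfic and Camk2n1. Id2 had 11.4 and 11.0 UMIs per 10000 in KO tumours and 6.72 and 5.86 in WT tumours (difference 0.94, SE 0.140, adjusted p = 0.0482). Mdfic, a regulator of transcription, had 1.64 and 1.25 in KO and 0.751 and 0.413 in WT (0.53, SE 0.0736, adjusted p = 0.0441). Camk2n1, an inhibitor of the kinase CaMKII, had 0.975 and 1.01 in KO and 0.477 and 0.355 in WT (0.38, SE 0.0560, adjusted p = 0.0482). For each of these, both KO mice lay above both WT mice. Tgfbi, an extracellular matrix protein that macrophages secrete, fell, with 0.464 and 0 in KO and 1.44 and 1.45 in WT (-0.34, SE 0.0464, adjusted p = 0.0441). It was detected in 4.82% and 0% of KO cells and in 11.9% and 12.5% of WT cells, the WT2 value being 1 of 8 cells. With C1qa at 0 the call was lost (-0.27, adjusted p = 0.143), and without cells rich in macrophage and dendritic cell markers Tgfbi did not reach the detection filter. Id2, Mdfic and Camk2n1 lost their calls in these settings too. Their adjusted p-values were 0.0729, 0.0729 and 0.0695 with C1qa at 0, and 0.132, 0.102 and 0.102 without the marker-rich cells. With cells thinned to 2000 UMIs no gene passed, and Camk2n1 was at 0.10 (adjusted p = 0.480). Of 9 macrophage markers tested 8 had a difference below 0, none past the threshold. In 7 of the 9 both KO mice lay below both WT mice on the mean log scale, beside 15.1% of all genes. Summed over the 14 genes of the list, the means were 7.48 and 3.86 in KO against 12.3 and 9.27 in WT. The medians of that sum, 4.3 and 3.3 in KO and 5.0 and 3.6 in WT, overlap. The highest WT2 cell had a sum of 49.6. The part of these markers in the Tgfbi result was not tested. With the channel as a term, these 4 genes had adjusted p-values of 0.0755 to 0.0800, and without KO2 of 0.0624 to 0.136. 2310031A07Rik, Camk2n1 and Tgfbi lay outside the rule for named genes and were chosen after their values were seen.

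These p-values rest on a spread shared by tumour and nodes. The median difference between the 2 mice of a genotype was 0.0922 in KO and 0.147 in WT tumours, but 0.0285 to 0.0357 in the nodes, and 21.6% of genes had an unadjusted p under 0.05. With tumour samples alone that share was 4.79% and a single gene passed, Ccl5 (1.66, adjusted p = 0.00238), with 49.0 and 79.3 UMIs per 10000 in KO and 59.9 and 32.3 in WT, which overlap on this linear scale. In that fit limma pooled the spread of all genes, so that the p-value does not rest on the spread of Ccl5 between mice; in the fit with all samples Ccl5 had an adjusted p of 0.158. By limma-voom 0 genes passed, and 455 had an unadjusted p under 0.05.

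Pdcd1, Lag3, Gzmb, Prf1, Ifng, Tcf7, Tox and Mki67 did not pass between genotypes. For Pdcd1 the levels of 10.9 and 5.45 in KO and 7.41 and 2.35 in WT overlap (0.97, SE 0.401, adjusted p = 0.210). Lag3 overlapped likewise, at 15.4 and 8.76 against 9.07 and 1.00 (1.43, SE 0.499, adjusted p = 0.172), and so did Gzmb, at 23.7 and 10.2 against 18.7 and 5.82 (0.62, SE 0.371, adjusted p = 0.334). Prf1 had 7.09 and 5.56 in KO and 6.48 and 0.382 in WT (1.00, SE 0.320, adjusted p = 0.159). Ifng differed by 0.96 (SE 0.267, adjusted p = 0.139), and Tcf7, with 0.0886 and 0.185 in KO and 0.399 and 0.892 in WT, by -0.33 (SE 0.148, adjusted p = 0.225). Tox differed by 0.11 (adjusted p = 0.566) and Mki67 by 0.09 (adjusted p = 0.449). WT2 was the lowest tumour for Pdcd1, Lag3, Gzmb, Prf1, Ifng and Havcr2 and the highest for Tcf7. Of its 8 cells 2 had a Pdcd1 UMI and 3 had Tcf7.

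By list, 12 of 15 cytotoxic effectors were above 0 with a median of 0.48, 10 of 11 costimulatory receptors with a median of 0.33 and 16 of 17 cytokine receptors with a median of 0.22, beside 4515 of 7958 genes and a median of 0.02 over all genes. None of these passed. In list order, both KO mice lay above both WT mice in 6, 3 and 5 genes, beside 17.1% of all genes. They lay below in 2, 1 and 1, beside 15.1%. WT2, with 8 cells, was the lowest tumour for Gzmb and Prf1, and the lists were not counted again without it. Inhibitory receptors had 7 of 14 above 0 and a median of 0.05. Naive and stem-like genes had 4 of 17 above 0 and a median of -0.26, and interferon-stimulated genes 3 of 15 and a median of -0.12, again with none past the threshold. In the naive and stem-like list both KO mice lay below both WT mice in 10 genes and above in 2, beside the same 15.1% and 17.1%. In the transcription factor list, 15 of 22 were above 0 and Id2 was the member that passed.

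Whether the genotype difference depended on tissue was tested directly, as the KO minus WT difference in tumour minus that in dLN. Of 7591 genes, 1 passed (0.0132%), and 403 (5.31%) had an unadjusted p under 0.05. In 18.4% of genes both KO mice had a larger tumour minus dLN value than both WT mice, and in 14.6% a smaller one. The gene was Hspa1a, an inducible HSP70 chaperone whose near-identical neighbour Hspa1b can share its reads. It had 0.0980 and 0 UMIs per 10000 in KO tumours and 0.864 and 5.07 in WT tumours, against 2.80 and 2.75 in KO dLN and 1.07 and 1.31 in WT dLN. KO was thus below WT in tumour and above it in dLN, with a difference of -0.94 (SE 0.183, adjusted p = 0.0446). In tumour the gene was found in 2 of 83 and 0 of 19 KO cells and in 4 of 67 and 1 of 8 WT cells, so that the WT2 value is that of a single cell. With ndLN as the node the difference was -0.42 and did not pass (adjusted p = 0.814). Without KO1, KO2 or WT2 it did not pass either, at adjusted p-values of 0.999, 1.00 and 0.999.

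Rgs16 followed at 1.39 (adjusted p = 0.0525), with Ifitm1 at 1.23 (0.244), Lag3 at 1.40, Klrc1 at 1.17 and Tigit at 0.96 (0.268 each), and on the other side Cd69 at -1.09 (0.170), Jun at -0.82 (0.172), Rhob at -0.56 (0.375) and Malat1 at -1.14 (0.414). None of these passed. Pdcd1 was at 0.94, Prf1 and Ifng at 0.94 each, Gzmb at 0.59, Tcf7 at -0.23, Tox and Mki67 at 0.09 each and Havcr2 at -0.01, with adjusted p-values of 0.268 to 0.998.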

How the data were processed

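The deposited matrix holds natural log values, ln(1 + UMIs per 10000), of 12638 genes and 12458 cells; a second table gives mouse and tissue. The submitters' processing notes name Cell Ranger 3.0.2 and mm10, and the sources used here give no tag assignment or cell filters. Back-transformed values were whole UMIs (100% within 0.01), which gave depths and sums. T cell receptor genes are not analysed here, and some genes are not reported here.

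The members and gene lists (21 lists, 288 genes found) were chosen with earlier results of these data known. Genes were named by rule: 9 fixed genes; of genes past the threshold, without overlap and above the median level, up to 12 per direction by size; up to 4 list members per list and direction; and where under 5 passed, the 5 with the smallest p per direction. Log2(1 + UMIs per 10000) was averaged per mouse and tissue and fitted with limma 3.58.1 (trend) in R 4.3.3, at a threshold of 0.05; each sample needed 5 cells, since 10 would leave 1 WT tumour. Genes needed a UMI in 5% of cells. KO versus WT used all 12 samples with groups by genotype and tissue; tumour versus dLN had the mouse as a term and left out the rule genes. Shares were tested by exact permutation. The fits were also run on simulated data with 1 spread for every mouse and tissue. The real tumours varied more between mice than the nodes, so those runs cannot show how the KO versus WT fit behaves here. Positions are from GENCODE M21. Channels pair the mice per the labels; deviations of mice of 1 channel correlated at 0.0761 across genes in tumour, 0.0248 in dLN and 0.302 in ndLN. Whether WT and KO mice were littermates is not given, and 2 mice per genotype limit every genotype test. Alternatives changed the scale, filters, cell rule, depth, block and mice; leaving out cells with over 20 myeloid marker UMIs per 10000, and the comparison with C1qa-high cells, were added after seeing the data.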

Additional observations from a re-analysis of the deposited data

Results flagged for a closer look

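Hspa1a was picked out because its genotype difference was not the same in the 2 tissues by a test of that difference, -0.94 on the log2(1 + UMIs per 10000) scale (SE 0.183, adjusted p = 0.0446 by limma). The values behind it were 0.0980 and 0 UMIs per 10000 in KO tumours and 0.864 and 5.07 in WT tumours, against 2.80 and 2.75 in KO dLN and 1.07 and 1.31 in WT dLN. In tumour they come from 7 cells with a UMI among 177. Leaving out cells with over 20 myeloid marker UMIs per 10000 gave -0.53 (adjusted p = 0.941), and limma-voom gave -4.55 (adjusted p = 0.0136). Over the 11 alternatives that gave a value, those that leave out a mouse included, the adjusted p ran from 0.00546 to 1.00.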

How the results depend on the processing

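With 2 mice per genotype and 8 cells in WT2, genotype counts were unstable. KO versus WT genes, 5 in the reported fit, numbered 1 with tumour samples only, with the channel as a block, with C1qa at 0, with the gene and mitochondrial limits and without myeloid-marked cells, 0 by limma-voom and with thinned cells, 48 with no filter on detection, 7 with log2(0.1 + mean), and 6 to 3957 with a mouse left out (465 without KO1, 6 without KO2, 3957 without WT1, 40 without WT2, a lone mouse then standing for its genotype). Log2(0.1 + mean) moved the median of all genes to 0.13, and limma-voom moved that of tumour versus dLN to 0.32. Tumour versus dLN genes, 1404 in all, numbered 2420 by limma-voom, 877 with no filter, 530 with thinned cells, and 635 (without KO1) to 2553 (without WT2) with a mouse left out (636 without KO2, 686 without WT1). Of 85 named genes that passed there, 65 passed without each mouse in turn; 12 lost the call without KO1, 17 without KO2 and 10 without WT1, among them Zap70, Icos, Ccl3, Ly6c2, Btla, Junb, Hsp90aa1 and Hspe1, and no named gene turned direction. The genotype difference between tissues, 1 gene, counted 24 by limma-voom, 14 with ndLN, 0 with no filter, with the 20% filter, with thinned cells and without myeloid-marked cells, and 0 to 289 with a mouse left out. The share difference was 16.2 points among Cd3e cells, and 1.11 (without WT2) to 4.28 points (without WT1) with a mouse left out. Havcr2, KO versus WT, turned to 0.29 with log2(0.1 + mean), 0.22 with thinned cells, 0.048 without myeloid-marked cells, and ran from -0.33 to 0.30 with a mouse left out, above 0 without KO2 (0.16) and without WT1 (0.30, past the threshold). Other KO versus WT values that turned were Gzmb without WT2 (-0.18 to 1.42 with a mouse left out), Mki67 without WT2 (-0.034 to 0.22), and Tox by limma-voom (-1.54), without KO2 and without WT2 (-0.096 to 0.32). Between tissues, Havcr2 turned by limma-voom (0.51), with log2(0.1 + mean) (0.38), thinned cells (0.23), without myeloid-marked cells (0.050), without KO2 and without WT1 (-0.32 to 0.30 with a mouse left out); Gzmb by limma-voom (-0.81) and without WT2 (-0.22 to 1.40); Tox by limma-voom (-0.56), thinned cells (-0.055), without KO2 and without WT2 (-0.14 to 0.31); Tcf7 (-0.51 to 0.060) and Mki67 (-0.025 to 0.20) without WT2; and Pdcd1 (-0.94), Rgs16 (-0.33), Ifitm1 (-3.37) and Klrc1 (-0.30) by limma-voom. With the mouse left out of the tumour versus dLN model (no replicate block) 1507 genes passed. The alternative without myeloid-marked cells was chosen after seeing the data. The causes were not tested.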
